A study of Mus musculus with 2 samples.

Results

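Genes of mitosis and of the spindle checkpoint were followed in 2 samples of mouse embryonic stem cells. The list named 36 genes. For each one, the probe set with exactly 1 gene symbol in the platform annotation was taken, and where a gene had several, the one with the highest mean of both samples. This gave values for 35 genes, of 22180 genes measured in this way. Ccnb1, which encodes cyclin B1, had no such probe set and was not analysed here. Each of the 35 had 1 single-symbol probe set, so no choice among probe sets was needed.

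The 2 samples came from stable lines of Niwa embryonic stem cells, 1 sample for each line. The EWS-OCT4A-GFP line expresses a fusion of EWS with OCT4A, tagged with green fluorescent protein, and the control line expresses GFP. EWS is an RNA-binding protein that occurs in fusions of several human tumours, and OCT4A is the isoform of the POU factor OCT4 that maintains pluripotency. Below, these are the fusion sample and the control sample. Both lines were grown with LIF, and in both the endogenous OCT-4 was lowered with 1 µg/ml doxycycline, so no untreated sample was compared. No source used here gives the promoter of the transgenes, the length of treatment or whether a line was 1 clone. The design text speaks of duplicates, but each line has 1 column of values, so no spread between replicates could be estimated, no test of the lines was possible and no p-value is given.

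Dividing cells enter mitosis when CDK1, bound to cyclin A2 or a B-type cyclin, is activated by CDC25 phosphatases. The spindle checkpoint then holds the cell until each kinetochore is attached to microtubules, and its release lets CDC20 switch on the anaphase-promoting complex (APC/C), which marks securin and the cyclins for destruction. Transcripts of these genes accumulate in late S, G2 and M phase. Their promoters are known for CCAAT boxes, bound by NF-Y, and for the cell cycle genes homology region (CHR), bound by MuvB complexes together with B-MYB and FOXM1 or, in resting cells, within the repressive DREAM complex. Mouse embryonic stem cells cycle fast, with a short G1 phase.

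The promoter sequences are shown first because 19 of the 29 genes with a promoter sequence have a CHR match there, and the list of genes was not chosen by motif. Windows of 300 bases, 250 before the transcript start and 50 from it, were read from RefSeq sequences of build GRCm38.p6. The 4 genes with the largest differences between the samples that had a CHR match in this window are given, so the motif did select the sequences shown. Pttg1 was added after its values were seen, as the gene with the largest negative difference. Each sequence runs 5′ to 3′ on the gene's strand from 150 bases before the start, for 180 bases in all. Capitals mark CHR matches (TTTGAA, or TTCAAA for the opposite strand) and CCAAT boxes (CCAAT, or ATTGG for the opposite strand).
Ube2c, chr2:164769779-164769958, plus strand: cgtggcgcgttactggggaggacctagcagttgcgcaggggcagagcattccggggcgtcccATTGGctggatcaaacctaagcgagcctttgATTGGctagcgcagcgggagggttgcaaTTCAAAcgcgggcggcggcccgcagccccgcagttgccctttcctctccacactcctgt
Ttk, chr9:83834539-83834718, plus strand: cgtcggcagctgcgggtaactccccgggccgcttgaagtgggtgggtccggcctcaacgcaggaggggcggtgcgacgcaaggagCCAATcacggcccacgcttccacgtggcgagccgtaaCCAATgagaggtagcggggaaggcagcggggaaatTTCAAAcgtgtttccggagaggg
Cenpf, chr1:189688057-189688236, minus strand: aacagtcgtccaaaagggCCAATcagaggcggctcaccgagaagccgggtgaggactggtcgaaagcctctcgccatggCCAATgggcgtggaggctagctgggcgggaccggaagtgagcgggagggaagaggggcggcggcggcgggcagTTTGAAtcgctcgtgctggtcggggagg
Aurka, chr2:172370541-172370720, minus strand: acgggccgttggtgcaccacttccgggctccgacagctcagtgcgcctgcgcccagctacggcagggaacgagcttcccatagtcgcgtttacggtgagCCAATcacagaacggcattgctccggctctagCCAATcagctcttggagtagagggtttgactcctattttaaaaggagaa
Pttg1, chr11:43425952-43426131, minus strand: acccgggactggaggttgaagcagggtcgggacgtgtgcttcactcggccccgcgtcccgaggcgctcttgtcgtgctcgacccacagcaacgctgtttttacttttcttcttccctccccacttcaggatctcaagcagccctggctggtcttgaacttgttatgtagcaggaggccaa
In Ube2c, Ttk, Cenpf and Aurka, 2 CCAAT boxes fall in the stretch shown. The CHR match begins 29 bases before the start in Ube2c, at base 8 from the start in Ttk and at base 3 in Cenpf. That of Aurka begins at base 33, just past the stretch shown. The stretch of Pttg1 holds neither motif.

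As a group, the genes read modestly higher in the fusion sample. Values are the deposited RMA values (robust multi-array average, a background-corrected and quantile-normalized probe set summary) on the log2 scale, and a difference is the value in the fusion sample less that in the control sample. Of the 35 genes, 31 had a difference above 0, or 88.6%, where 51.2% of the 13516 genes that reached the floor did. The floor is the median of all values, 4.10, which the higher of the 2 values had to reach, and all 35 genes passed it. At least 2-fold higher were 9 genes, or 25.7%, against 9.31% of all genes, and 0 were at least 2-fold lower, against 11.9% of all genes. At the smaller size of 1.5-fold, 22 genes were higher, or 62.9%, against 20.0%. The median difference was 0.75, or 1.68-fold, whereas that of all genes at or above the floor was 0.03. Differences ran from -0.85 (Pttg1) to 1.49 (Ube2c), and no gene reached 3-fold. Centring the differences by loess on the mean level lowered the median to 0.64 and the 2-fold count to 6, without Aurkb, Mad2l1 and Top2a.

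**Figure D1:**
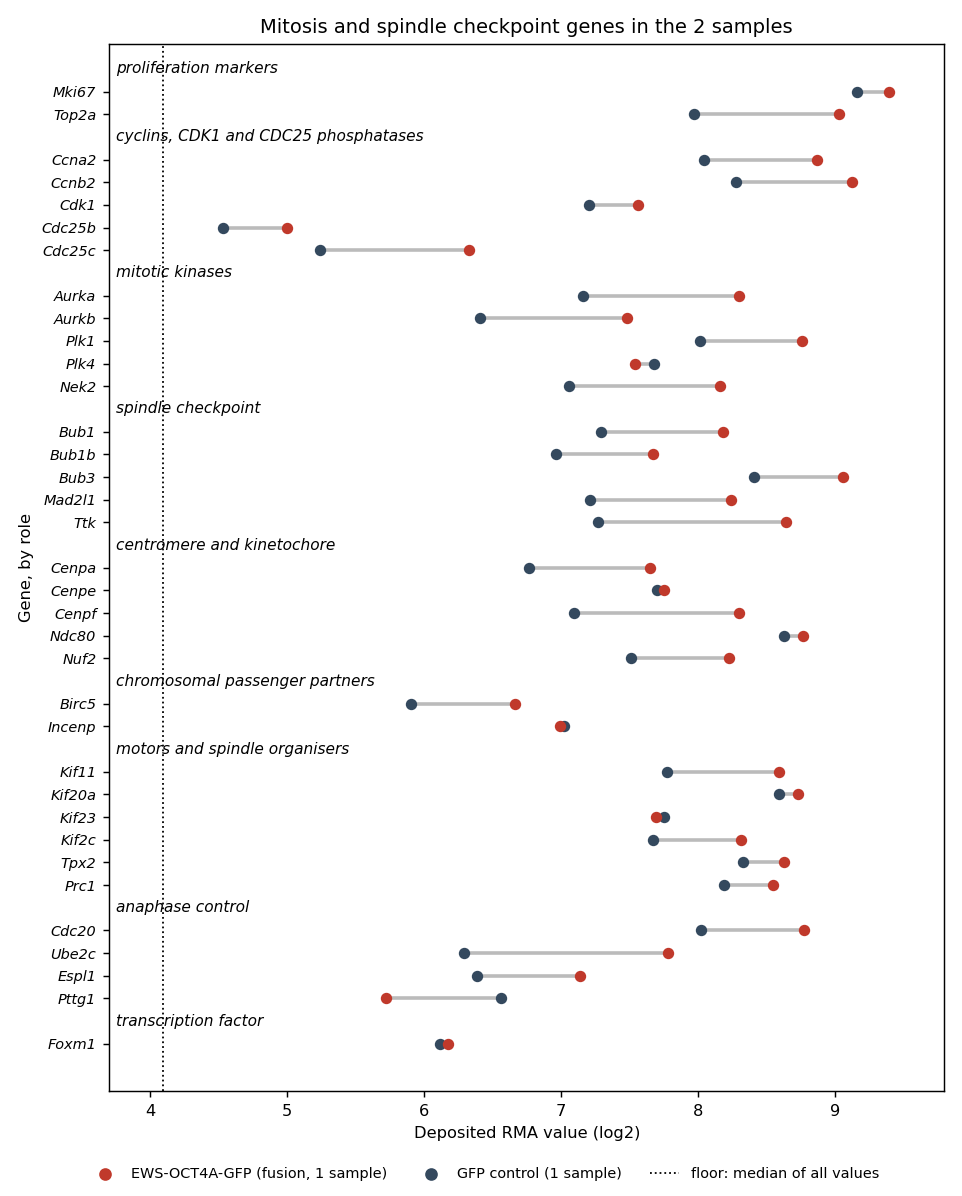
Deposited log2 RMA values (x axis) of the 35 genes (y axis, by role) in the fusion (EWS-OCT4A-GFP, red) and control (GFP, blue-grey) samples, 1 sample each, with a dotted line at the floor of 4.10. In 31 genes the red point lies to the right, and the exceptions are Plk4, Incenp, Kif23 and Pttg1.

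A scale for these differences comes only from within the arrays. For 479 other genes with exactly 2 single-symbol probe sets at or above the floor, the differences read by both probe sets lay a median of 0.39 apart, and 81.6% lay less than 1 apart. This gap describes probe sets of 1 gene, which can detect different transcripts, and not the spread between cultures. A difference smaller than 0.39 in a single gene below is therefore smaller than the median gap. Larger differences can also lie within the gaps, whose 75th percentile was 0.775, and some gaps were 1 or more.

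Cyclins, CDK1 and CDC25 phosphatases were all above 0. Ccna2, which encodes cyclin A2, read 8.87 in the fusion sample and 8.04 in the control, a difference of 0.82. Ccnb2, the B-type cyclin measured here, read 9.13 and 8.28, a difference of 0.85 or 1.80-fold. Their kinase partner Cdk1 differed less, with 7.57 and 7.20, a difference of 0.36. Cdc25c, whose phosphatase removes the inhibitory phosphates from CDK1, was the 1 gene of this group past 2-fold. It read 6.33 and 5.24, a difference of 1.09. Its relative Cdc25b had low values of 5.002 and 4.53, nearer to the floor than those of the other genes, and differed by 0.47.

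Mitotic kinases were the role group with the largest median, 1.07 over 5 genes. Aurka, the kinase of spindle poles and centrosomes, read 8.30 in the fusion sample and 7.16 in the control, a difference of 1.14 or 2.20-fold. Nek2, a kinase of centrosome separation, read 8.16 and 7.06, a difference of 1.11. Aurkb, the kinase of the chromosomal passenger complex, read 7.49 and 6.41, a difference of 1.07. These 3 kinases lay between 2.11-fold and 2.20-fold. Plk1, which acts from mitotic entry to cytokinesis, read 8.76 and 8.01, a difference of 0.75. Plk4, the kinase of centriole duplication, stood apart from them in direction, with 7.54 and 7.68, a difference of -0.13 that is smaller than the gap between probe sets given above.

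All 5 spindle checkpoint genes were above 0, with a median of 0.90. Ttk, which encodes the checkpoint kinase MPS1, read 8.64 in the fusion sample and 7.27 in the control, a difference of 1.37 or 2.59-fold. Mad2l1, whose product MAD2 binds CDC20, read 8.25 and 7.21, a difference of 1.03, the smallest of the 9 past 2-fold. Just short of that size was the kinase gene Bub1, with 8.19 and 7.29, a difference of 0.90. Bub1b, which encodes the CDC20 inhibitor BUBR1, read 7.67 and 6.97, a difference of 0.70. Bub3, which carries BUB1 and BUBR1 to kinetochores, read 9.06 and 8.41, a difference of 0.65. This was the 1 role group of 5 or more genes in which each gene was at least 1.5-fold higher, which was lost under loess centring, where Bub3 differed by 0.53. At that size, 62.9% of the 35 genes and 20.0% of all genes at or above the floor were higher.

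Centromere and kinetochore genes were less even. Cenpf, a large kinetochore and nuclear matrix protein, read 8.30 in the fusion sample and 7.10 in the control, a difference of 1.20. Cenpa, the histone H3 variant that marks centromeres, read 7.65 and 6.76, a difference of 0.89. A pair of subunits of the microtubule-binding NDC80 complex differed in size. Nuf2 read 8.23 and 7.51, a difference of 0.72, and Ndc80 read 8.76 and 8.63, a difference of 0.14. The kinetochore kinesin gene Cenpe was level, with 7.75 and 7.70. Its difference of 0.05 turned below 0 under loess centring. Of the chromosomal passenger genes that work with Aurkb, Birc5 (survivin) read 6.66 and 5.90, a difference of 0.76, whereas the scaffold gene Incenp read 6.99 and 7.02. The Incenp difference of -0.03 turned above 0 under quantile normalization.

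Motors and spindle organisers had the lowest median of the groups with 4 or more genes, 0.33, and 0 of 6 were past 2-fold. Kif11, the motor that pushes spindle poles apart, read 8.60 in the fusion sample and 7.77 in the control, a difference of 0.82. Kif2c, a microtubule depolymerase, read 8.31 and 7.67, a difference of 0.64. Tpx2, the spindle activator of Aurora A, differed by 0.29, with 8.63 and 8.33. Prc1, which crosslinks the microtubules of the central spindle between the separating chromosomes, differed by 0.36, and the motor genes Kif20a by 0.14 and Kif23 by -0.06. The values of Kif20a were 8.73 and 8.59, and those of Kif23 were 7.69 and 7.75.

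Genes of anaphase control held both ends of the range. Ube2c, the E2 enzyme that starts ubiquitin chains for the APC/C, read 7.78 in the fusion sample and 6.29 in the control, a difference of 1.49 or 2.81-fold. Cdc20, the APC/C activator that the checkpoint restrains, read 8.77 and 8.02, a difference of 0.75. Espl1, which encodes separase, the protease that cuts cohesin, read 7.14 and 6.39, also a difference of 0.75. Pttg1, which encodes securin, the inhibitor of separase, went the other way, with 5.72 and 6.57, a difference of -0.85. It was 1.80-fold higher in the control sample and the 1 gene of the 35 lower by 1.5-fold or more. Separase and securin thus read on opposite sides of 0. The transcription factor gene Foxm1 was level, at 6.18 and 6.12, and its difference of 0.06 turned below 0 under loess centring.

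The 2 proliferation markers differed in size. Mki67, which encodes the Ki-67 protein of cycling cells, read 9.39 in the fusion sample and 9.16 in the control, a difference of 0.23. Top2a, the topoisomerase that untangles sister chromatids, read 9.03 and 7.97, a difference of 1.06. A pair of probe sets annotated to both Top2a and Taf1d, and so not used for either gene, differed by 1.52 and 1.68.

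**Figure D2:**
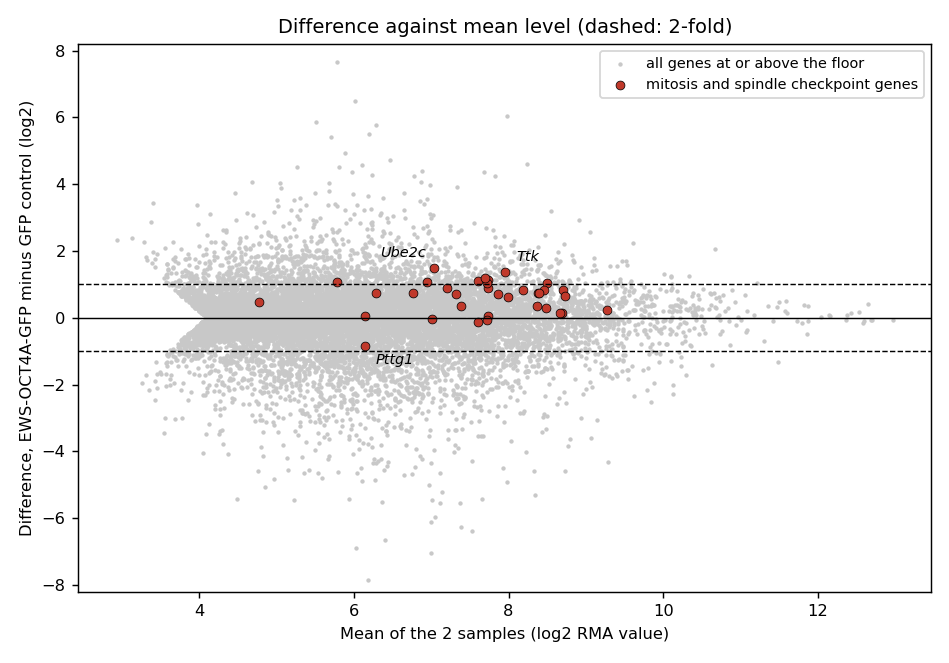
Difference between the samples (y axis, log2, fusion minus control) against the mean of both samples (x axis, log2 RMA value) for the 13516 genes at or above the floor (grey) and the 35 mitosis and spindle checkpoint genes (red), with dashed lines at 2-fold. The red points lie between -0.85 (Pttg1) and 1.49 (Ube2c), inside the range of the grey points, with 31 of 35 above 0.

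Cell type markers differed between the samples in directions that depended on the list. Markers of pluripotent stem cells were above 0 in 12 of 12 cases, where 51.2% of all genes at or above the floor were. Past 2-fold were 10 of them, or 83.3%, against 9.31% of all genes. Their mean log2 value was 8.34 in the fusion sample and 5.62 in the control. Dppa5a, at 3.81 and 2.89, was below the floor in both samples. Trophectoderm markers were below 0 in 12 of 12 cases and at least 2-fold lower in 10 (83.3%, against 11.9% of all genes), with means of 4.56 and 7.76. Of 5 measured markers of trophoblast giant cells, 3 were at least 2-fold lower, with means of 3.79 and 6.01. Those were Plac1, Rhox6 and Rhox9, which are also made in other trophoblast, whereas Prl2a1 differed by -0.50 and Ctsq by 0.36. Fibroblast markers were at least 2-fold lower in 2 of 11 cases (Postn and Pdgfra), or 18.2% against 11.9% of all genes, with means of 3.80 and 4.30. No marker of these lists can be called absent, since no detection call was used here. Among the defining pluripotency genes, Nanog read 10.5 and 5.94, whereas Pou5f1, which encodes OCT4, was level at 5.37 and 5.24, and Zfp42, at 10.3 and 7.77, stayed well above the floor in both samples. The simple keratin gene Krt8 read 5.70 and 11.0. The part of these markers in the mitotic differences was not tested. In bulk RNA, fewer dividing cells and less of these transcripts per dividing cell cannot be told apart.

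The other genes of the mitotic machinery were read from 8 lists, with 141 of 150 genes measured. At least 2-fold higher were 22 of them, or 15.6%, against 9.31% of all genes, and 5 were at least 2-fold lower, or 3.55%, against 11.9%. Their median was 0.46. The condensin, kinesin and kinetochore lists had the medians nearest to that of the 35 genes. Other kinetochore and centromere genes had a median of 0.60, with 8 of 32 at least 2-fold higher and 0 lower. Cenpm read 7.64 in the fusion sample and 5.52 in the control, a difference of 2.12, Nsl1 of the MIS12 complex differed by 1.82, and Ska2 of the SKA complex by 1.67. Spc24, a partner of Ndc80 and Nuf2 in the NDC80 complex, differed by 1.15, and Spc25 by 0.56, so its 4 subunits ran from 0.14 to 1.15. Other kinesins and cytokinesis genes had a median of 0.72, with 4 of 15 (26.7%) at least 2-fold higher. Cep55, a midbody protein of the final cut between daughter cells, read 8.02 and 5.61, a difference of 2.41, Kif24 differed by 1.79 and Kif18a by 1.36. Condensin subunits had a median of 0.75, and 0 of 7 were past 2-fold in either direction, with Ncapd2 at 0.88, Ncapd3 at 0.87 and Ncapg2 at 0.79. Below 0 were 2 of the 7, Smc4 (-0.35) and Ncaph2 (-0.36).

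The APC/C, cohesin, spindle and G2/M lists had medians closer to 0. Subunits and regulators of the APC/C had a median of 0.21, with 2 of 17 at least 2-fold higher, or 11.8%, close to the 9.31% of all genes. Those were Fbxo5, which encodes the APC/C inhibitor EMI1, with 7.99 and 6.17, a difference of 1.82, and Anapc13 (2.15-fold). Anapc15 followed at 0.71. Cohesin genes had a median of 0.00, which was -0.10 under loess centring. At least 2-fold higher were 3 of 13, or 23.1%, against 9.31% of all genes. Those were Sgo1, the guardian of centromeric cohesion (1.26), Esco2 (1.25) and Cdca5, which encodes sororin (1.05). The core ring genes Smc3 (-0.06) and Rad21 (-0.20) were near 0, whereas Smc1a differed by 0.79. Other spindle and centrosome genes had a median of 0.30, with 3 of 26 (11.5%) at least 2-fold higher and 2 (7.69%) lower, shares close to those of all genes. Aspm (1.25), Nusap1 (1.17) and Hmmr (1.04) were the higher ones, and the centriole gene Cenpj (-1.99) and the spindle pole gene Numa1 (-1.19) the lower ones. Cenpj read 4.68 and 6.67. Other kinases, phosphatases and cyclins of G2 and M had a median of 0.19. Nek6 differed by -1.44, the CDK1-inhibiting kinase gene Wee1 by -0.98 and Pbk by 0.80.

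Of 19 genes of the DREAM, MuvB, E2F and B-MYB group, which act on mitotic and other cell cycle promoters, 2 were higher and 2 lower by at least 2-fold. Each share, 10.5%, is close to that of all genes (9.31% and 11.9%), and the median was 0.46. Mybl2, which encodes B-MYB, read 10.03 in the fusion sample and 8.86 in the control, a difference of 1.18. E2f2 differed by 1.65, from 4.10 in the control, a value at the floor. The retinoblastoma gene Rb1 read 5.84 and 8.09, a difference of -2.25 or 4.75-fold higher in the control sample. Its relatives Rbl1 (0.91) and Rbl2 (0.46), the pocket proteins of DREAM, lay on the other side of 0. The repressor gene E2f7, with 6.38 and 7.39, was the other gene at least 2-fold lower, and its relative E2f8 differed by -0.64. The MuvB gene Lin9 differed by -0.97, Lin54, whose product contacts the CHR, by 0.18, and Lin52 by 0.94.

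DNA replication genes, which act a phase earlier, showed differences of similar size. Of 44 measured, 41 were above 0, with a median of 0.83. At least 2-fold higher were 17, or 38.6%, against 9.31% of all genes, and 0 were lower. Gins1 (1.81), Mcm3 (1.72) and Pcna (1.66) differed most. The gap between this median and the mitotic one of 0.75 was not tested. G1 cyclins, CDKs and CDK inhibitors ran from -2.77 to 2.01. At least 2-fold higher were 5 of 14 (35.7%, against 9.31% of all genes), and 2 were lower (14.3%, against 11.9%). The CDK inhibitor genes Cdkn1a, with 6.81 and 9.59, and Cdkn1c, with 5.12 and 7.83, were the lower ones. The cyclin gene Ccnd1, with 6.76 and 4.75, was the highest, and Cdk6 (1.29), Ccne1 (1.24), Cdk4 (1.07) and Ccnd3 (1.07) were the others past 2-fold. No difference among the 35 mitotic genes reached the size of those of Cdkn1a, Cdkn1c and Ccnd1.

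**Figure D3:**
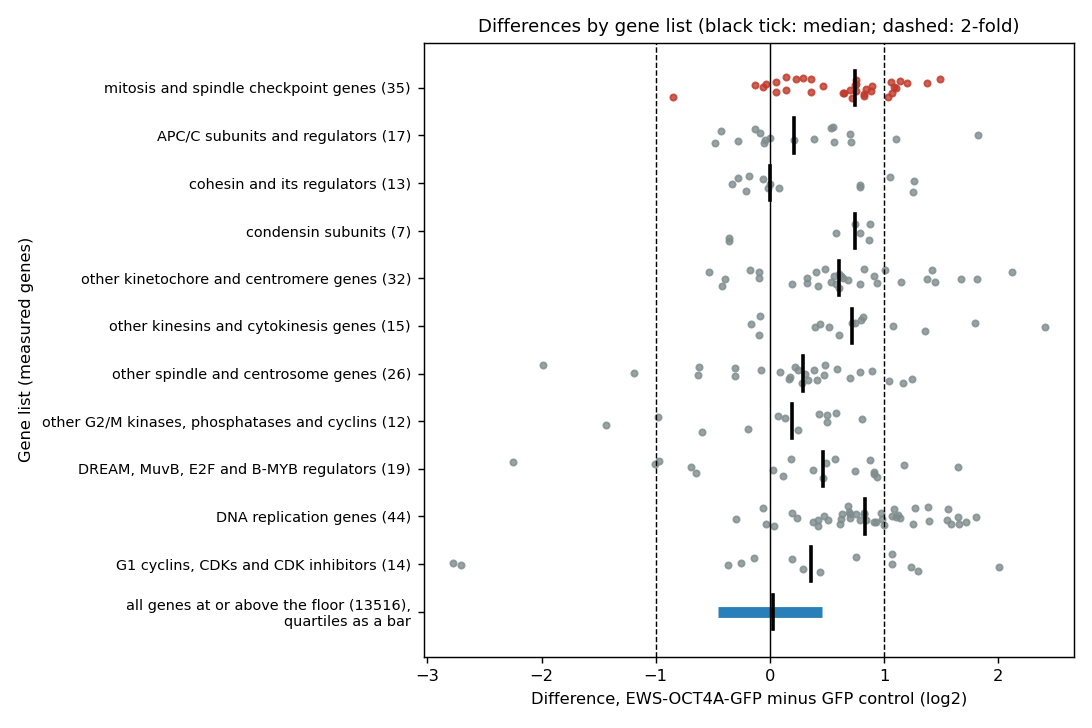
Difference between the samples (x axis, log2, fusion minus control) for each measured gene of the mitosis and spindle checkpoint list (red) and of 10 other lists (grey), with the median as a black tick, dashed lines at 2-fold and the number of measured genes in brackets. The blue bar spans the first to the third quartile of all genes at or above the floor, from -0.46 to 0.46, and the medians of the mitosis and spindle checkpoint (0.75), condensin (0.75), kinesin and cytokinesis (0.72), kinetochore (0.60), DNA replication (0.83) and, just past its end, DREAM and E2F (0.463) lists lie to its right.

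The promoter windows of the mitotic and the replication genes differed in their shares of CHR matches and E2F words, and both lists had CCAAT boxes in most windows. RefSeq windows were held for 29 of the 36 genes. A CHR match (TTTGAA on either strand) was found in 19 of them, or 65.5%, where 20.2% of the 27025 genes in the promoter table had one. A CCAAT box (either strand) was found in 22, or 75.9%, against 41.1% of all genes, and both motifs in 17, or 58.6%, against 7.97%. E2F words (TTCCCGC or TTCGCGC or TTGCCGC or TTGGCGC, either strand) were found in 4, or 13.8%, against 10.9%. These were Ccnb1, Cdk1, Mki67 and Plk4. Among the 10552 genes with a window that reached the floor, the shares were 14.1% for CHR, 42.2% for CCAAT, 5.72% for both and 18.6% for E2F words. Of the 28 measured mitotic genes with a window, which leave out Ccnb1, 3 held an E2F word, or 10.7%. The E2F share of the mitotic genes was thus near that of the whole table and below that of the genes that reached the floor. The words of the CHR, CCAAT and E2F searches were counted separately, whether or not matches overlapped. Among 37 replication genes with a window a CHR match was found in 18.9%, an E2F word in 64.9% and a CCAAT box in 62.2%. Kinesin and cytokinesis genes (73.3% of 15) and condensin genes (71.4% of 7) were like the mitotic list in their share of CHR matches, and the APC/C genes (18.8% of 16) were like all genes. An E2F word was found in 26.7% of these kinesin and cytokinesis genes and in 71.4% of the condensin genes. Over all other mitosis lists together, 38.6% of 127 genes with a window had a CHR match and 37.8% an E2F word. The low E2F share of the 29 genes was thus not common to the other mitosis lists. A gene with several windows, as Bub3 and Prc1 have, was counted if any of them held the motif, and the shares describe letters, not bound sites. Over the 32851 windows taken singly, 17.9% had a CHR match and 37.4% a CCAAT box.

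The CHR matches lay closer to the transcript start than the CCAAT boxes did. Taking 1 window for each gene, 17 of 23 CHR matches (73.9%) began within 50 bases of the start. Their median position was 18 bases before it. By the same measure, 16 of 47 CCAAT boxes (34.0%) and 0 of 5 E2F matches began that close. CCAAT boxes had a median of 68 bases before the start, and 37 of 47 began in the last 150 bases before it. No such shares are given for the windows of all genes, so these positions have no background. A CHR match and a CCAAT box were both present in each of the 4 genes that differed most among those with a window. These were Ube2c, Ttk, Cenpf and Aurka, whose sequences are given above. Both motifs were also present in Mki67, Prc1, Cdk1 and Kif23, which differed by 0.36 or less.

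Within the list, the medians with and without a CHR match lay close together. The 19 measured genes with a CHR match had a median difference of 0.75, and the 9 with a window and no match had one of 0.72. For the CCAAT box the medians were 0.75 in the 21 genes with it and 0.64 in the 7 without. At least 2-fold higher were 6 of the 21 (28.6%) and 1 of the 7 (14.3%), and above 0 were 20 of the 21 and 5 of the 7. By CHR match, 5 of the 19 genes with it (26.3%) and 2 of the 9 without (22.2%) were at least 2-fold higher. The 5 measured genes with neither the CHR nor the CCAAT word were Mad2l1, Birc5, Nuf2, Plk4 and Pttg1, with differences of 1.03, 0.76, 0.72, -0.13 and -0.85. Above 0 were 3 of these 5, and 16 of the 17 with both motifs. Over all 10552 genes at or above the floor with a window, the median was 0.11 for the 1488 with a CHR match and 0.01 for those without, and 0.17 for the 604 with both motifs. The share at least 2-fold higher was 12.3% with both motifs and 7.94% with neither. Of the 17 measured mitotic genes with both motifs, 5 (29.4%) were at least 2-fold higher, and of the 5 with neither, 1 (20.0%) was. These shares were not tested against each other.

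**Figure D4:**
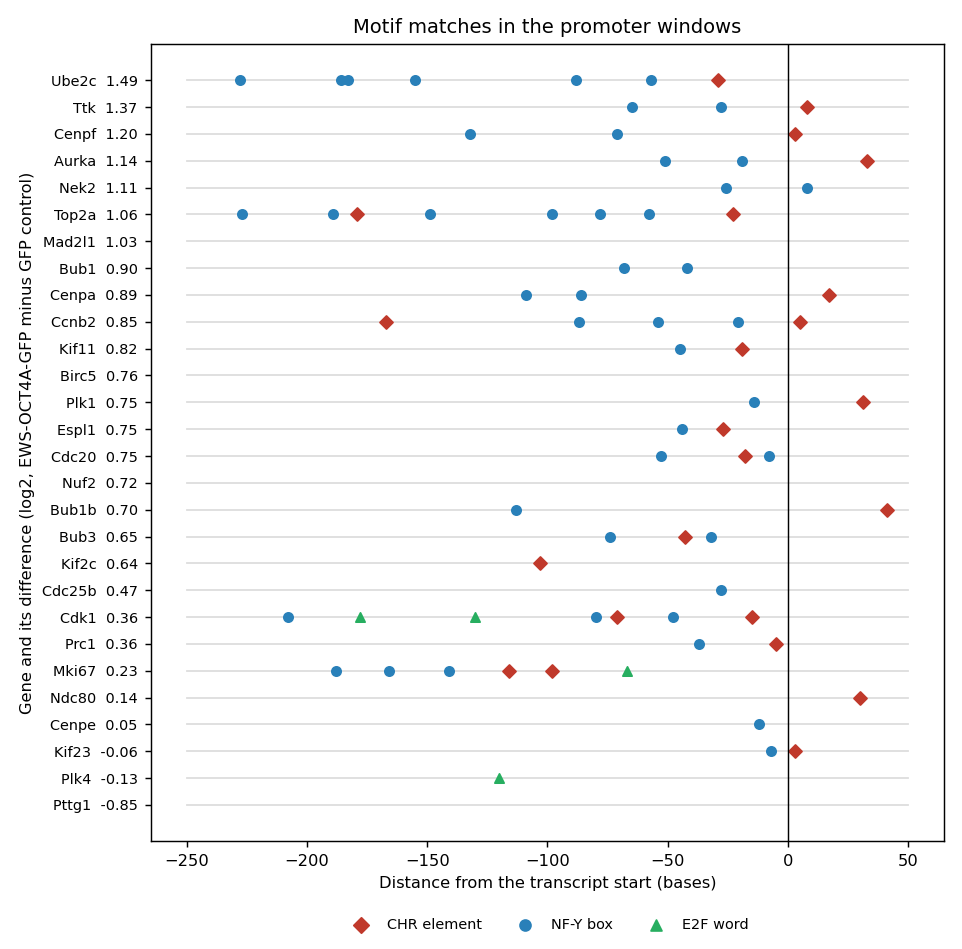
Matches to the CHR element (red), the NF-Y (CCAAT) box (blue) and E2F words (green) by distance from the transcript start (x axis, bases) in 1 window for each of 28 measured genes (y axis), ordered by the difference printed beside the name (log2, fusion minus control). Red symbols gather near the start, with 17 of 23 within 50 bases, at the top of the order and further down. Pttg1 at the bottom has no match, and neither do Mad2l1, Birc5 and Nuf2 higher up.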

How the data were processed

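Total RNA of 2 samples was labelled for an Affymetrix array. Per the submitters' processing notes, the authors made the deposited values with RMA in Affymetrix Expression Console 1.1, and they were taken as log2, since RMA gives log2 and they run from 0.618 to 13.0. RMA's quantile normalization hides a shift shared by most transcripts. No source used here says whether a column averages duplicate arrays. Of 33793 probe sets, 23521 had 1 symbol, 1814 several and 8458 none. RefSeq (GRCm38.p6) held 23328 of the former, and 0 symbols differed.

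A gene was counted as higher or lower at a difference of at least 1 (2-fold), with the higher value at or above 4.10. With 1 sample per group no test was run, and the number of arrays limits the precision. The mitosis genes, lists, roles and rules were chosen with earlier results of these data known. All mitosis genes were named, with the 3 largest differences at or above the floor of each other mitosis, replication or G1 list. Any other gene, including the cell type markers named, was picked with its values known. Alternatives covered threshold, floor, normalization and probe sets. The procedure was tested on simulated data. The planted differences were larger than any among the mitosis genes, so this test does not bear on calls near the threshold. Python 3.11.15, pandas 2.3.3, numpy 2.4.6 and statsmodels 0.14.6 were used.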

Additional observations from a re-analysis of the deposited data

How the results depend on the processing

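Leaving out a replicate was not possible. No paired analysis was possible because neither line has a repeated sample. The 9 mitosis genes at least 2-fold higher became 22 at 1.5-fold and 0 at 3-fold, and the 0 lower became 1 at 1.5-fold. The shares of all genes called higher and lower became 20.0% and 20.6% at 1.5-fold, 3.43% and 5.82% at 3-fold, and 6.02% and 7.49% without a floor. With the floor at the 75th percentile, those shares were 11.7% and 16.6%. The same 9 genes were called without a floor, with the floor at the 75th percentile, and under median centring, quantile normalization and averaged probe sets. Leaving out the floor, median centring and averaging could not change these calls. All 35 genes passed the floor, the median difference of all genes was 0.0, and each of the 35 had 1 single-symbol probe set. Quantile normalization repeated a step of RMA. Loess centring kept 6 of the 9. A median counted as moved when it changed by more than 0.1. Under loess centring the medians became 0.64 for the mitosis genes, 0.10 for APC/C, -0.10 for cohesin, 0.62 for kinesin and cytokinesis, 0.19 for spindle and centrosome genes, 0.53 for proliferation markers, 0.72 for cyclins, CDK1 and CDC25 phosphatases and 0.22 for motors. The remaining medians moved by 0.1 or less. Signal over background is unknown, which limits values near the floor, such as those of Cdc25b and E2f2.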
